A study of Mus musculus with 48 samples.

Results

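The livers of female and male C57BL6/J mice kept on a high-fat diet (HFD) for 12 weeks were compared by poly(A) RNA sequencing. The comparison takes every liver library labelled HFD, 12 weeks: 3 females (animals 3, 6 and 7) and 3 males (animals 2, 3 and 4), which are 6 of the 48 libraries of the study. It covers autosomal genes, 15169 of the 15897 genes with enough counts to test. The study fed mice from Charles River either HFD, with 45% of calories from fat, or a standard chow called regular diet (RD), from 8 weeks of age. Each diet was given for 2 or 12 weeks to mice of both sexes, in separate cohorts for the 2 durations, and liver and visceral white adipose tissue were sequenced in groups of 3. Stranded libraries were made from 200 ng of RNA. Beside several results stand the same values from the livers of RD mice at 12 weeks (females 5, 7 and 8, males 2, 3 and 4) and HFD mice at 2 weeks (females 1, 2 and 5, males 12, 13 and 14). The labels give a group and an animal number only, so the p-values measure the spread between these samples, which may in part be technical.

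Mouse liver is among the organs in which expression differs most between the sexes. Growth hormone reaches it in sharp pulses in males and more continuously in females, and its receptor signals through JAK2 to STAT5b, which with BCL6 and CUX2 switches sets of cytochrome P450, sulfotransferase, urinary protein and transporter genes between a male and a female pattern. Besides hepatocytes, the tissue holds Kupffer cells, which are its resident macrophages, fenestrated sinusoidal endothelium, vitamin A-storing stellate cells, bile duct cells and lymphocytes. Because whole tissue was sequenced, fewer cells of a type and less RNA per cell cannot be told apart in any value given here.

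Levels are CPM, counts scaled to one library size by the trimmed mean of M values (TMM), and are not corrected for gene length, so they are compared between animals and never between genes. A log2 fold change is females over males, given with its standard error (SE) from edgeR's quasi-likelihood fit, and a gene was called higher or lower at a Benjamini-Hochberg adjusted p under 0.05. The 6 libraries held 60727469 to 80062383 estimated counts. Ddx3y, a Y-linked RNA helicase, was at 0.141 to 0.807 CPM in the libraries labelled female and 49.7 to 72.4 CPM in those labelled male. Summed CPM over 10 hepatocyte markers lay between 115000 and 135000 in females and 107000 and 114000 in males. Male 4 stood apart from the other males. On the second principal component of the 6 libraries, which held 20.5% of the variance, it lay at 58.8 against -46.6 for male 2 and -43 for male 3, while the first component, with 54.2%, separated the sexes. Its TMM factor was 0.813, against 0.989 and 0.902 in the other males and 1.09 to 1.15 in the females. Results that rest on male 4 are therefore given with and without it.

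Of the 15169 autosomal genes, 2628 (17.3%) differed between the sexes, 1510 (9.95%) higher and 1118 (7.37%) lower in females. Of these, 1294 differed by at least 1 log2 unit, 904 of them higher in females. Past 3 log2 units there were 116 genes higher and 91 lower. Without male 4 the counts were 1095 higher and 479 lower, and without female 7 they were 1088 and 573. On RD at 12 weeks 1332 genes (8.78%) differed, 846 higher (5.58%) and 486 lower (3.2%), and on HFD at 2 weeks 1895 (12.5%) did, 959 higher (6.32%) and 936 lower (6.17%). The balance between directions depended on the scaling. With total counts in place of TMM, the median log2 fold change of all tested genes moved from 0.01 to 0.31 and the calls became 3115 higher and 369 lower, 89.4% higher against 57.5% with TMM. Directions below are relative to the TMM scaling. Counts of list members are to be read against 9.95% higher and 7.37% lower with TMM. Those given with total counts are to be read against 3115 higher and 369 lower of the 15169 genes.

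Most of the 30 genes at the ends of the fold change range belonged to the sex-dependent enzyme, urinary protein and transporter families. Of 32 tested genes listed as female-biased in liver, 28 were higher in females and 0 lower, with a median log2 fold change of 5.57 against 0.01 over all genes. Summed CPM over the list was 8780 to 9730 in females and 532 to 1150 in males. Of 43 tested male-biased genes, 35 were lower in females and 0 higher, with a median of -3.09 and summed CPM of 4460 to 5240 in females and 35900 to 91900 in males. Leaving out any 1 animal gave 26 to 28 and 33 or 34 calls in these directions, and on RD at 12 weeks the lists gave 29 higher and 36 lower. Both lists were drawn up as genes known for this bias, so their direction here is a description. Members of the Cyp2, Cyp3a, Cyp4a, Sult2a, Mup and Ugt1a families are near copies of each other, so estimated counts can be shared between them and the level of any single copy is uncertain.

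**Figure D1:**
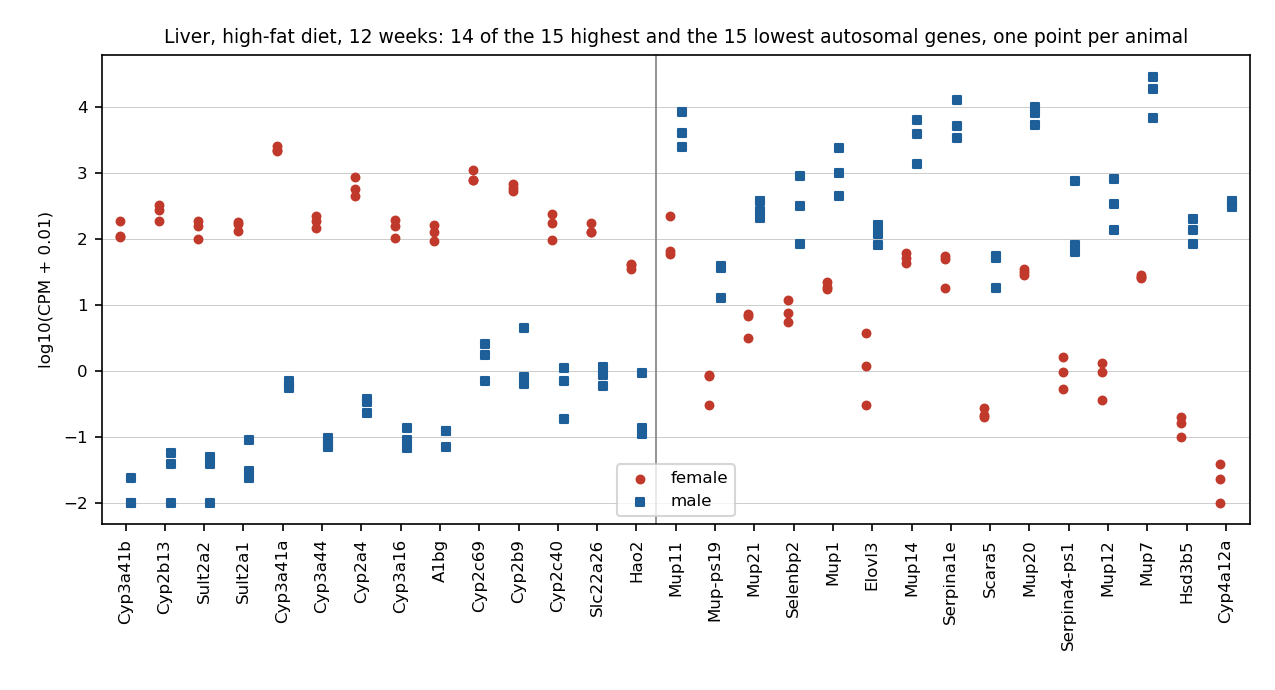
Levels in each of the 6 livers of 14 of the 15 genes highest and the 15 lowest in females among those with no overlap between the sexes; the y axis is log10 of CPM plus 0.01, points are single animals and colours mark sex. As the selection required, the female points of each of the 29 genes lie on 1 side of the male points. Cyp2b13 is at 187 to 324 CPM in females and at most 0.0483 CPM in males.

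Cyp3a41b, a steroid- and drug-hydroxylating P450 at chr5:145558664-145584730 (GRCm38), had the highest fitted fold change. It stood at 187, 107 and 109.7 CPM in females 3, 6 and 7 and at 0, 0.0143 and 0 CPM in the males (log2 fold change 14.17 ± 1.56, adjusted p = 1.47e-05). The males gave 1 count in all against 32200 in females, a 25000-fold ratio with a 95% counting interval of 4490 to 988000. Its neighbours Cyp3a41a (2529, 2133 and 2216 CPM in females; 0.547, 0.686 and 0.588 CPM in males), Cyp3a44 and Cyp3a16 followed the same split. Cyp2b13, a P450 of the phenobarbital-responsive subfamily at chr7:26061497-26096197, stood at 273, 187 and 324 CPM in females and 0.0483, 0.0286 and 0 CPM in males. The ratio of its counts was 9620 (interval 4120 to 29600).

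Sult2a1 and Sult2a2 encode sulfotransferases that conjugate bile acids and hydroxysteroids. Sult2a1 (chr7:13796246-13837409) stood at 183, 168 and 133 CPM in females and 0.0804, 0.0143 and 0.0203 CPM in males (11.97 ± 0.554, adjusted p = 8.01e-12, edgeR), and Sult2a2 differed by 12.60 ± 0.657. Cyp2a4, a testosterone 15-alpha-hydroxylase, stood at 863, 571 and 446 CPM against 0.225, 0.372 and 0.324 CPM. No male reached the lowest female in any of these genes, which were named under a rule that required this. A1bg, a secreted immunoglobulin-like glycoprotein, Cyp2c69, Cyp2c40 and Hao2, a peroxisomal hydroxyacid oxidase, were also among the highest 15, with Cyp2b9 and Slc22a26.

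Not every member was near silent in males. Cyp4a14, a fatty acid omega-hydroxylase and PPARA target, stood at 703, 1295 and 974 CPM in females and 359, 189.7 and 22.9 CPM in males (2.38 ± 0.767, adjusted p = 0.0401; 3.25 without male 2), and its call was lost without any 1 animal other than male 2. Cyp17a1, which makes androgen precursors, was at 243, 135 and 154 CPM in females and 31.1, 40.1 and 11.6 CPM in males. The 4 list members that were not called were Cyp4a10 (log2 fold change 1.38, adjusted p = 0.149), Sult1e1 (-0.88, adjusted p = 0.565), Sult1d1 (0.25, adjusted p = 0.41) and Gsta2 (0.29, adjusted p = 0.733). Sult1e1, the estrogen sulfotransferase, was at 0.63, 0.249 and 0.422 CPM in females and reached 1.99 CPM in male 4 against 0.193 and 0.257 CPM in the other males.

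Promoter sequences were read for the genes whose groups the results turn on, from RefSeq (GRCm38.p6), which held 11223 of the 15169 tested genes. The window ran from 250 bases before to 50 after the start, and both strands were searched. The STAT motif TTCNNNGAA, the letters bound by STAT5 dimers, occurred in 958 of these promoters (8.54%), in 97 of 1090 called higher (8.9%) and in 62 of 851 called lower (7.29%). Among genes past 3 log2 units it occurred in 8 of 53 higher (15.1%) and 1 of 56 lower (1.79%). It was found in 4 of 24 female-biased genes (16.7%), namely Sult3a1, Fmo2, Slc22a26 and A1bg, and in 1 of 33 male-biased genes (3.03%), C8a. The motif was also in 6 of 23 genes of the growth hormone receptor, STAT5 and IGF1 list (26.1%), whose sex differences, given below, were mixed. Near copies within a family, such as the Mup or Cyp3a genes, were counted as separate genes. A match describes the letters and says nothing of binding. The 250 bases before the start are shown for Slc22a26, an organic anion transporter (chr19:7802668-7802917, minus strand, capitals mark the STAT motif, 141 to 133 bases before the start), and for Cyp3a41b, the gene with the highest fold change (chr5:145584731-145584980, minus strand, no match).
Slc22a26: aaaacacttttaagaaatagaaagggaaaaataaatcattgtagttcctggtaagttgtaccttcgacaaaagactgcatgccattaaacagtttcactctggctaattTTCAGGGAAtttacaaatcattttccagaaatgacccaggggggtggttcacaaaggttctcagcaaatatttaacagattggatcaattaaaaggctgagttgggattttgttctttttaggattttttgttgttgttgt
Cyp3a41b: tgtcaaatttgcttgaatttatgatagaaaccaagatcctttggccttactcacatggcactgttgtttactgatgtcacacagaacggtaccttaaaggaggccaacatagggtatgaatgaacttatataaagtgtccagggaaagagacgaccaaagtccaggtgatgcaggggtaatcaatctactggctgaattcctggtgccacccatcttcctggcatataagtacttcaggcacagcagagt

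Slc22a26 itself stood at 128, 175 and 126 CPM in females and 1.13, 0.872 and 0.588 CPM in males (7.36 ± 0.373, adjusted p = 2.6e-11).

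Among the male-biased genes, Cyp4a12a, an arachidonic acid omega-hydroxylase at chr4:115299046-115332815, was at 0, 0.0293 and 0.0128 CPM in females 3, 6 and 7 and 323, 302 and 373 CPM in males 2, 3 and 4 (-14.47 ± 1.21, adjusted p = 1.89e-07). The females gave 3 counts in all against 59592, a 25600-fold ratio (interval 8750 to 124000). Hsd3b5, a male-type 3-keto-steroid reductase at chr3:98618634-98630252, stood at 0.0917, 0.191 and 0.153 CPM in females and 85.2, 135 and 200.2 CPM in males (-9.92 ± 0.9, adjusted p = 5.34e-07). Major urinary proteins, pheromone carriers secreted by the liver and passed into urine, made up 7 of the 15 lowest genes: Mup7, Mup12, Mup20, Mup14, Mup1, Mup21 and Mup11, with the pseudogene Mup-ps19. Mup7 (chr4:60066469-60070475) was even across females, at 28.4, 25.6 and 26.4 CPM, and spread over 6799, 18500 and 28940 CPM in males (-9.40 ± 0.574, adjusted p = 6.05e-10). Mup20, which encodes the male pheromone darcin (chr4:62050234-62054158), stood at 35.1, 32.1 and 28.4 CPM in females against 5255, 8183 and 10110 CPM in males (-7.94 ± 0.382, adjusted p = 8.01e-12).

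In both urinary protein genes male 4 was the highest animal and male 2 the lowest of its sex. Male 4 was also the highest for Serpina1e, an antitrypsin-family secreted inhibitor (18.3, 50.2 and 55 CPM in females; 3345, 5157 and 12920 CPM in males), and for Selenbp2 (5.52, 12.1 and 7.69 CPM; 84.3, 316 and 886 CPM). Elovl3, a very-long-chain fatty acid elongase, stood at 0.298, 3.77 and 1.18 CPM in females and 120.4, 80.8 and 163 CPM in males. Scara5, a ferritin receptor, was at 0.264, 0.205 and 0.192 CPM against 18, 54.4 and 52.4 CPM. Slco1a1, an organic anion uptake transporter, was at 4.19, 37.2 and 8.87 CPM against 595, 687 and 626 CPM (-5.25 ± 0.806, adjusted p = 0.000212), with female 6 above the other females and -6.61 without it.

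Genes of the terminal complement pathway were also on the male-biased list. C6, a subunit of the membrane attack complex at chr15:4727175-4814967, stood at 21.9, 19 and 22.1 CPM in females and 277, 378 and 769.9 CPM in males (-4.50 ± 0.301, adjusted p = 1.52e-09). C8a (116, 145 and 179 CPM in females; 568, 950.1 and 1151 CPM in males), C8b and C9 were lower in females by 2.60, 2.60 and 2.32 on the log2 scale. Cyp7b1, the oxysterol 7-alpha-hydroxylase, was at 13.2, 13.6 and 13.8 CPM against 120.2, 205 and 444 CPM (-4.24 ± 0.368, adjusted p = 1.29e-07; -3.56 without male 4). Egfr, the epidermal growth factor receptor, was at 167, 442 and 156 CPM in females against 469, 699 and 1897 CPM in males (-2.00 ± 0.484, adjusted p = 0.00781), so that female 6 came close to male 2, and its call was lost without male 4.

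Genes of growth hormone signalling gave a mixed picture. Of 27 tested members of the growth hormone receptor, STAT5 and IGF1 list, 7 were higher and 1 lower in females, with a median of -0.30 that became -0.00 with total counts, where the counts were 7 and 0. Prlr, the prolactin receptor, a close relative of the growth hormone receptor at chr15:10177238-10349180, stood at 787, 788 and 841 CPM in females and 203, 246 and 202 CPM in males (1.89 ± 0.192, adjusted p = 8.94e-07). Cux2, a female-enriched repressor of male-biased genes, was at 56.2, 24.2 and 35.1 CPM in females and 5.92, 5.3 and 5.15 CPM in males (2.82 ± 0.374, adjusted p = 3.4e-05). Stat5b, the main signal transducer of growth hormone in hepatocytes, stood at 69, 89.2 and 84.7 CPM against 52.7, 45.9 and 51.4 CPM (0.70 ± 0.151, adjusted p = 0.00325). Its log2 fold change was 0.28 on RD at 12 weeks and -0.02 on HFD at 2 weeks.

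The circulating carrier of IGF1 is a complex of IGFBP3 and IGFALS, and both genes were higher in females: Igfbp3 at 26.3, 26 and 23.8 CPM against 18.2, 15.5 and 10.2 CPM, and Igfals by 1.02 ± 0.251 (adjusted p = 0.00789, and 0.0501 without female 7). Igf1 itself stood at 572, 615 and 603 CPM in females and 554, 851 and 972 CPM in males (-0.41, adjusted p = 0.107; 0.0145 without male 2), and Ghr at 468, 421 and 469 CPM against 592, 592 and 616 CPM (-0.41, adjusted p = 0.11). Foxa1, a pioneer factor of hepatocyte chromatin, was the lower member, at 14, 11.9 and 14 CPM in females and 21.5, 20.9 and 38.5 CPM in males (adjusted p = 0.0197). Its call was lost without male 4 (adjusted p = 0.169), female 6 (0.0736) or female 7 (0.0522), with total counts (0.0728) and with the compared groups fitted alone (0.061). Socs2, a feedback gene, and Bcl6 spread widely among the males. Bcl6 was at 9.43 CPM in male 2 and 116 and 82.6 CPM in males 3 and 4, against 11.4 to 26.6 CPM in females (-1.97, adjusted p = 0.0843, edgeR), and it was called lower by DESeq2 (0.0408) and by edgeR without male 2 (0.0165). Socs2 was at 16.7, 8.18 and 216 CPM in males and 34.6 to 50.1 CPM in females (-0.85, adjusted p = 0.518), and without male 4 its log2 fold change was 1.86 (adjusted p = 0.0575). With male 2 left out the list gave 6 genes higher and 6 lower, with male 3 left out 5 and 4, and without female 7 or male 4 6 and 0. DESeq2 called 7 higher and 5 lower.

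Of 14 steroid receptor and enzyme genes, 1 was higher and 2 were lower in females, while with total counts 4 were higher and 1 was lower. Esr1, the estrogen receptor alpha, stood at 39.9, 35.4 and 34.1 CPM in females and 11.4, 17.5 and 15.4 CPM in males (1.30 ± 0.278, adjusted p = 0.00293). Srd5a1, which reduces testosterone to dihydrotestosterone, was at 24.4, 23.9 and 32.6 CPM against 74.9, 87.3 and 56.3 CPM (-1.43, adjusted p = 0.00391). Neither overlapped between the sexes, and both were named by smallest p, which favours such a separation. Hsd17b4, a peroxisomal beta-oxidation enzyme, was lower by 0.39 on the log2 scale (adjusted p = 0.0234), a call lost with total counts (adjusted p = 0.67) and without female 3, female 6, male 3 or male 4.

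Many markers of macrophages, endothelium and stellate cells were higher in the female livers. Of 17 macrophage markers 14 were higher and 0 lower, with a median of 1.39. Of 18 endothelial markers 14 were higher and 0 lower (median 0.83), and of 16 stellate cell and fibroblast markers 7 were higher and 0 lower (median 0.60), with total counts 11 and 0 (median 0.89). Of 10 hepatocyte markers 0 were higher and 1 lower (median -0.12), a direction that flipped to 3 higher and 0 lower (median 0.18) with total counts. The lower one was Serpina1a, the main alpha-1-antitrypsin gene, whose call was lost without male 4 (adjusted p = 0.0925). With female 6, male 2 or male 3 left out, 2 hepatocyte markers were lower. Alb, albumin, stood at 80280 to 96200 CPM in females and 64770 to 75420 CPM in males (0.31, adjusted p = 0.162; 0.60 with total counts, adjusted p = 0.00437).

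**Figure D2:**
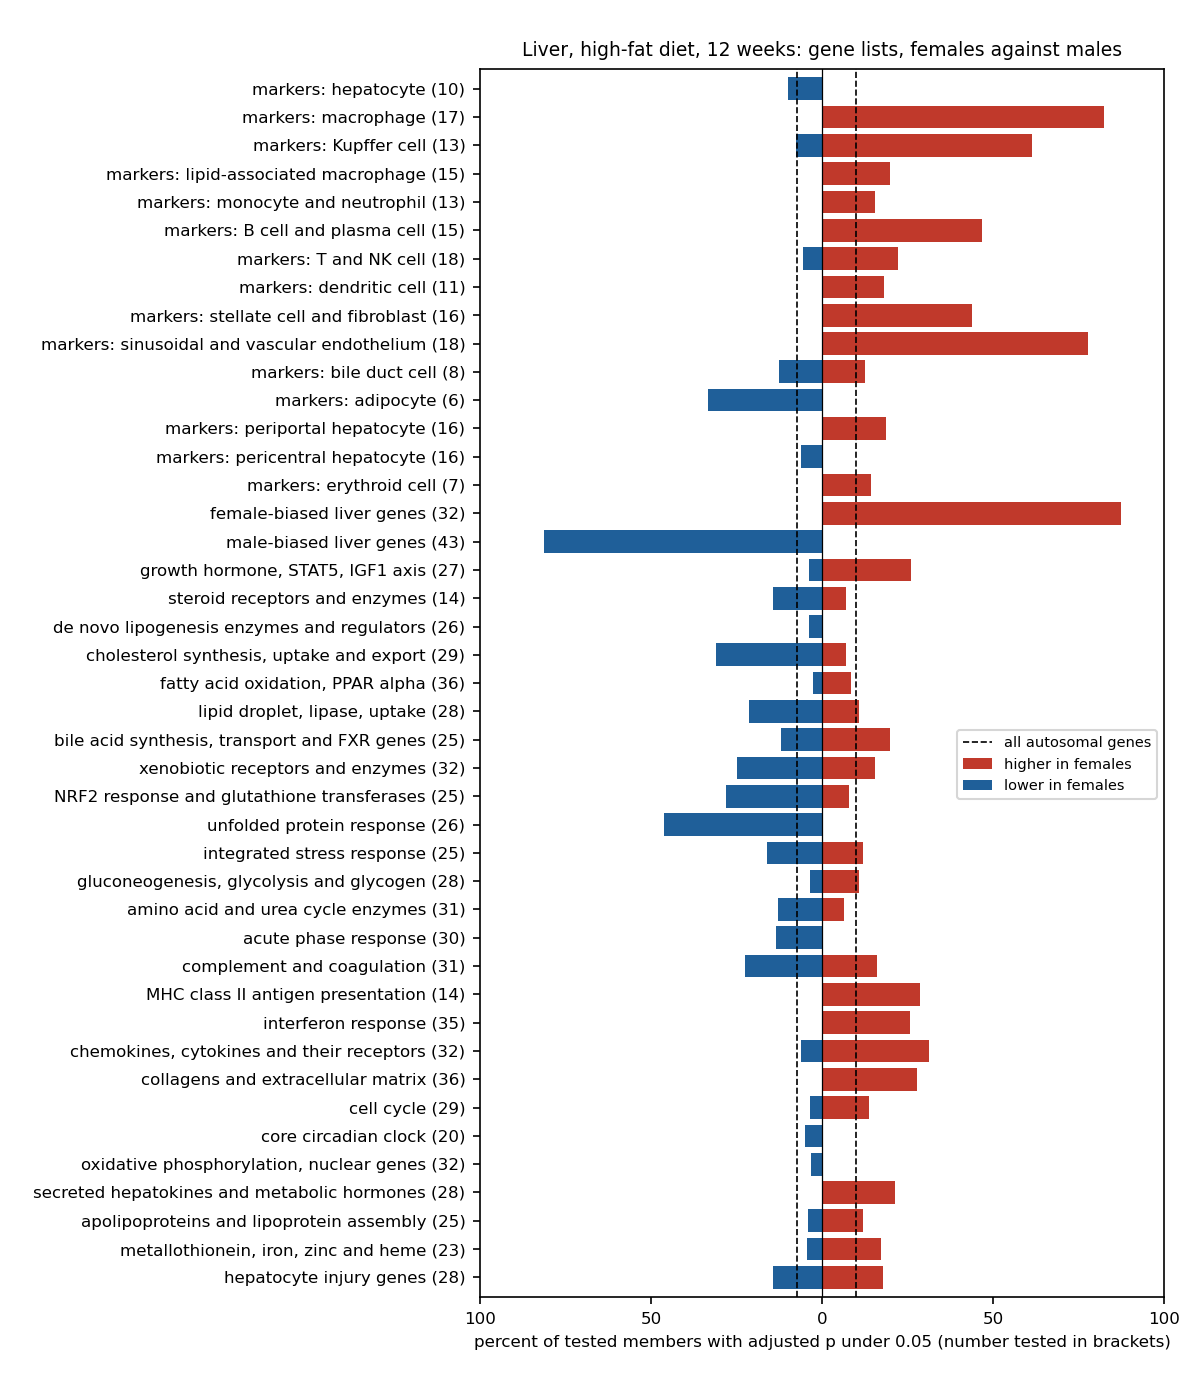
Share of the tested members of each list called higher (red, to the right) or lower (blue, to the left) in females on HFD at 12 weeks; dashed lines give the share over all autosomal genes, 9.95% and 7.37%, and brackets the number tested. The female-biased, macrophage, endothelial and Kupffer cell bars reach farthest to the right, and the male-biased and unfolded protein response bars farthest to the left.

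Emr1, which encodes the macrophage surface antigen F4/80 (chr17:57358581-57483529), stood at 31.4, 28.8 and 44.9 CPM in females 3, 6 and 7 and at 5.44, 3.9 and 6.83 CPM in males 2, 3 and 4 (2.70 ± 0.261, adjusted p = 4.43e-07). Every female was above every male, which naming by smallest p favours. On RD at 12 weeks the same gene was at 29.7, 27.7 and 52.5 CPM in females and 16.8, 20.9 and 17.6 CPM in males, and on HFD at 2 weeks at 31.8, 37.5 and 36.1 CPM against 37.7, 40.3 and 22.7 CPM. The female levels overlapped across the 3 settings, and the males on HFD at 12 weeks were the lowest of the males. Csf1r, the receptor of the macrophage growth factor CSF1, followed at 91.1, 80.7 and 102 CPM against 17.8, 12.2 and 23.2 CPM (2.36 ± 0.241, adjusted p = 9.36e-07). Cd163, the haptoglobin-hemoglobin scavenger receptor, was at 33.6, 31.7 and 16.7 CPM against 3.89, 4.6 and 8.96 CPM (2.24 ± 0.359, adjusted p = 0.000253).

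C1qc, a chain of the complement initiator C1q, which macrophages make, stood at 59.8, 53 and 61.4 CPM against 19.6, 15.3 and 23.5 CPM (1.58 ± 0.22, adjusted p = 4.64e-05), and C1qa and C1qb were higher in females by 1.39 and 1.60. Mrc1, the mannose receptor, was at 77.3, 83.7 and 69.3 CPM against 39.1, 34.7 and 30.7 CPM, and Lyz2, lysozyme, at 77.3, 84.7 and 109 CPM against 31.9, 15 and 36.6 CPM. Summed over the macrophage list, females held 743 to 819 CPM and males 243 to 381 CPM. Leaving out any 1 of the 6 animals gave 13 or 14 higher genes of the 17. In the RD livers at 12 weeks 8 of the 17 were higher (median 0.79), and on HFD at 2 weeks 0 were called in either direction (median 0.15).

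Kupffer cell markers gave 8 higher and 1 lower of 13. Clec4f, a Kupffer cell lectin, stood at 148, 140 and 148 CPM in females and 38, 39.2 and 65.2 CPM in males (1.62 ± 0.262, adjusted p = 0.000234). Cd5l, a macrophage-secreted lipid-binding protein, was at 143, 111 and 145 CPM against 22.9, 23.5 and 39.7 CPM (2.21 ± 0.35, adjusted p = 0.000212). Folr2 (13.6, 10.8 and 13.7 CPM; 4.02, 2.72 and 5.13 CPM) and Timd4, the phosphatidylserine receptor of resident Kupffer cells (8.72, 10 and 12.2 CPM; 2.54, 1.67 and 3.81 CPM), were higher in females as well. The lower member was C6, which is also on the male-biased list. With C6 the sums overlapped, at 660 to 775 CPM in females and 576, 631 and 1080 CPM in males 2, 3 and 4. Without C6 the list summed to 641 to 753 CPM in females and 253 to 308 CPM in males. Cd163 of this list is also counted as a macrophage marker, and Cdh5 as an endothelial one. Markers of lipid-associated macrophages, the cells around fat-laden hepatocytes, summed to 12500 to 13500 CPM in females and 15600 to 16600 CPM in males. Against the direction of that sum, 3 of the 15 markers of these cells were called higher: Atp6v0d2, Lpl and Lgals3. Trem2, the receptor that defines them, differed by 0.81 (adjusted p = 0.136; 0.0393 with total counts, where 5 of the list were higher), and Gpnmb by -1.42 (adjusted p = 0.269).

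Endothelial markers showed the same split of the animals. Stab2, the hyaluronan scavenger receptor of sinusoidal endothelium (chr10:86841198-87008025), stood at 50.1, 70.7 and 58.3 CPM in females and 27, 20.1 and 15.3 CPM in males (1.52 ± 0.235, adjusted p = 0.000139). Cdh5, the endothelial cadherin, was at 34, 41.8 and 37.3 CPM against 18.4, 15.4 and 13.4 CPM (1.26 ± 0.215, adjusted p = 0.000393). Eng, a TGF-beta co-receptor, was at 73.9, 89.8 and 79.8 CPM against 58.1, 42.6 and 37.8 CPM (0.81 ± 0.125, adjusted p = 0.000137). Tek, the angiopoietin receptor, was at 15.1, 20.6 and 19 CPM against 10.8, 6.82 and 5.49 CPM. None of these 4 genes overlapped between the sexes, a separation that naming by smallest p favours, and male 2 was the highest male in each. Lyve1, another hyaluronan receptor, stood at 9.62 to 12.1 CPM in females and 10.3 to 10.9 CPM in males (0.07, adjusted p = 0.851). The endothelial list summed to 690 to 859 CPM in females and 323 to 484 CPM in males. In the RD group at 12 weeks it gave 1 higher and 0 lower (median 0.36), and on HFD at 2 weeks 1 higher and 1 lower (median 0.24).

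**Figure D3:**
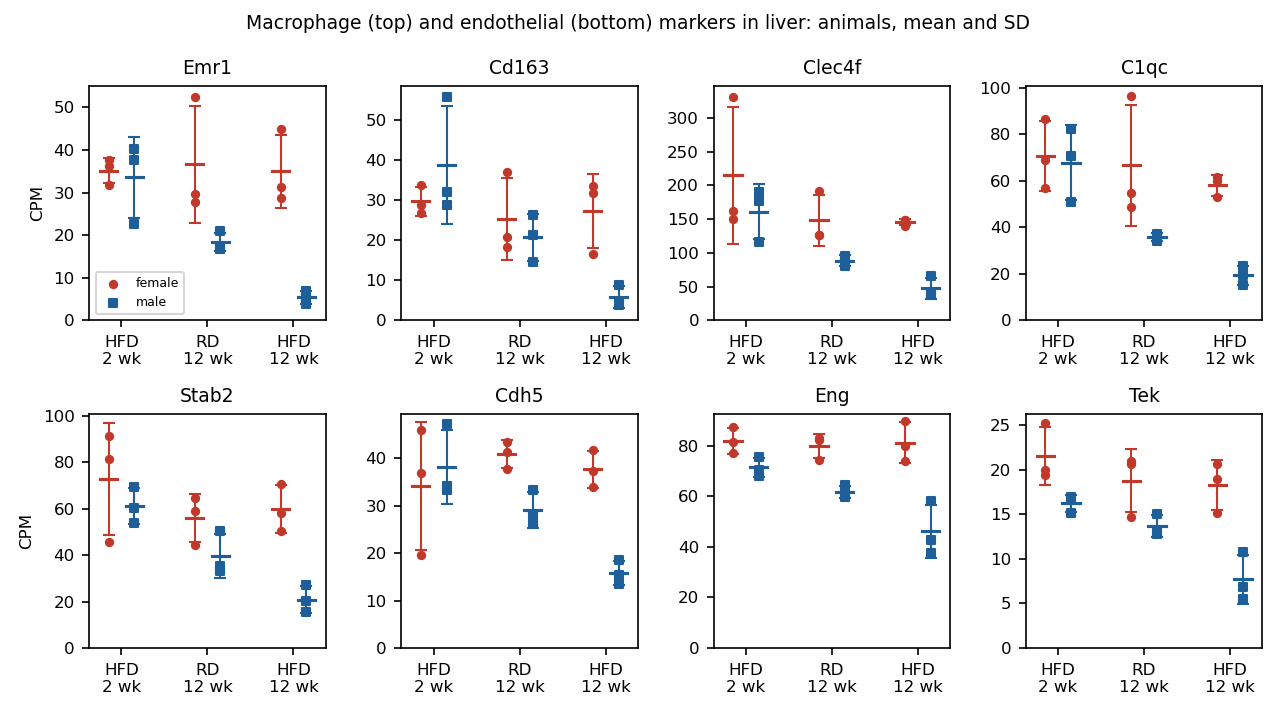
CPM of 4 macrophage and Kupffer cell genes (Emr1, Cd163, Clec4f, C1qc) and 4 endothelial genes (Stab2, Cdh5, Eng, Tek) on HFD at 2 weeks, RD at 12 weeks and HFD at 12 weeks; points are animals, lines the mean with its SD (n = 3), and colours mark sex. In the third setting the 3 females lie above the 3 males in each of the 8 genes, with Emr1 at 28.8 to 44.9 CPM against 3.9 to 6.83 CPM. The genes are from those named by smallest p in that setting, which favours this separation.

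Among stellate cell genes, Hgf, the hepatocyte growth factor made by stellate and endothelial cells, was at 6.54, 9.2 and 7.56 CPM in females and 2.56, 1.43 and 1.07 CPM in males (2.20 ± 0.334, adjusted p = 0.000122). Rgs5, a pericyte regulator of G-protein signalling, was at 54.6, 42.6 and 43.6 CPM against 29.9, 25.7 and 18.4 CPM. Lrat, which esterifies retinol for storage, was at 32.8, 20.2 and 21.5 CPM against 14, 12.2 and 5.63 CPM (1.22, adjusted p = 0.0298). The call for Lrat was lost without female 3 (adjusted p = 0.125), male 3 (0.0524) or male 4 (0.136), and without male 3 or male 4 the list gave 4 calls, and with the compared groups fitted alone 3. Col1a1 and Col3a1, the fibrillar collagens of scar tissue, differed by -0.27 (adjusted p = 0.73) and 0.73 (adjusted p = 0.157). Of 36 collagen and matrix genes 10 were higher and 0 lower (median 0.50), and with total counts 17 and 0 (median 0.79). They were led by Col14a1, a fibril-associated collagen, at 108, 88.4 and 92 CPM against 57.1, 49.2 and 31.5 CPM. Fbn1, Col5a1, Sparc, Timp2 and Mmp14 were higher too, and the compared groups fitted alone gave 6 matrix genes. Summed stellate marker CPM was 546 to 640 in females and 292 to 452 in males, and its part in the matrix genes was not tested.

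Lymphocyte markers were called in part. Of 15 B cell and plasma cell markers 7 were higher in females, and 4 were without female 3, female 7 or male 4. Igj, the joining chain of secreted antibodies, stood at 7.68, 11.4 and 4.65 CPM in females and 1.53, 1.19 and 1.28 CPM in males (2.57 ± 0.353, adjusted p = 4.02e-05). Of 18 T and NK cell markers 4 were higher (Klrb1c, Ncr1, Gzma and Gzmb, genes of NK cells and cytotoxic granules) and 1 was lower, and 2 were higher without female 3 or male 4. The lower one was Cd4, at 0.493, 0.983 and 0.473 CPM in females and 2.09, 2.66 and 2.31 CPM in males. Of 11 dendritic cell markers Ccr7 and Irf8 were called higher, 0 were without male 3, 1 was without female 3, female 6 or male 4, 4 were without male 2, and 5 were with total counts. Of 13 monocyte and neutrophil markers Plac8 and Ly6c2 were called higher, 1 was without female 3 or female 6, 0 were without male 3 and 4 were without male 4 or with total counts.

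Of 14 genes of MHC class II presentation 4 were higher in females (median 0.94), H2-Ob, Cd80, Ctss and Cd86, and 7 with total counts (median 1.24). H2-Ob, a subunit of the peptide-loading modulator H2-O, was at 1.18, 0.704 and 1.01 CPM in females and 0.177, 0.129 and 0.0608 CPM in males (2.94 ± 0.433, adjusted p = 8.88e-05). H2-Aa, a chain of the class II molecule itself, was at 40.7, 41.9 and 31.1 CPM against 23.7, 10.5 and 23 CPM (0.99, adjusted p = 0.124; 0.0412 with total counts). In RD livers at 12 weeks 9 of the 14 were called higher with a median of 1.63. The difference between diets was called for 0 of the 14.

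Interferon-induced genes gave 9 higher and 0 lower of 35, with a median of 0.47, while 4 were higher without female 3 and 16 with total counts (median 0.78). Oas3, an antiviral oligoadenylate synthetase at chr5:120753098-120777661, stood at 4.55, 3.87 and 2.38 CPM in females and 1.53, 1.07 and 1.56 CPM in males (1.38 ± 0.308, adjusted p = 0.00406). Oasl2 was at 9.83, 10.6 and 7.88 CPM against 4.81, 4.99 and 4.9 CPM, and Gbp3, an interferon-induced GTPase, at 24, 14.6 and 16.9 CPM against 6.96, 6.36 and 7.13 CPM, the latter lost without female 3 or male 3 (adjusted p = 0.0734 and 0.058). Ifit1, a common marker of type I interferon, overlapped between the sexes at 13.1, 11.2 and 10.8 CPM against 7.96, 10.8 and 16.1 CPM (0.02, adjusted p = 0.984). On RD at 12 weeks Ifit1 was at 10.9, 17.5 and 26.8 CPM in females and 6.26, 4.93 and 6.85 CPM in males (1.62, adjusted p = 0.00517), and 24 of the 35 were called higher with a median of 1.24. The sex by diet difference had an unadjusted p under 0.05 for 19 of the 35, against 6.94% of all autosomal genes. It passed the adjusted threshold for 0, and the list was chosen with earlier results of these data known.

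The interferon response motif TTTCNNTTTC, searched on both strands, was in 434 of 11223 promoters (3.87%) and in 16 of 24 interferon genes with an entry (66.7%). It was in 57 of 1090 genes called higher (5.23%) and 37 of 851 called lower (4.35%). Oas3, the interferon gene with the smallest p, is shown over the 250 bases before its start (chr5:120777660-120777909, minus strand), with the motif, here in its reverse complement 75 to 66 bases before the start, in capitals.
Oas3: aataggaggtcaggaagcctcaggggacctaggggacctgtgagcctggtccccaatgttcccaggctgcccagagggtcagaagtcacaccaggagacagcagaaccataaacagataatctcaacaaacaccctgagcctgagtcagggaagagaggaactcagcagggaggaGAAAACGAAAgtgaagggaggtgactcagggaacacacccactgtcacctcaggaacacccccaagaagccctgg

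Of 32 chemokine, cytokine and receptor genes 10 were higher and 2 lower in females. Ccl9, a macrophage-derived chemokine, was at 66.4, 65.1 and 54.1 CPM in females and 26.1, 29.8 and 21.7 CPM in males (1.26 ± 0.163, adjusted p = 2.13e-05). Il10ra, the interleukin-10 receptor chain on leukocytes, was higher by 1.58. Of the lower pair, Il1r1, the interleukin-1 receptor, was at 52.3, 41.5 and 20.1 CPM in females and 71.4, 118 and 578 CPM in males (-2.75 ± 0.576, adjusted p = 0.00305), and without male 4 its log2 fold change was -1.29 (adjusted p = 0.0284). The count was 4 higher and 4 lower without male 3, 9 and 4 without male 2, 5 and 1 without female 7, and 6 and 0 with the compared groups fitted alone, and 1 gene was lower without female 3, female 6 or male 4. The macrophage markers summed to 743 to 819 CPM in females and 243 to 381 CPM in males, and were higher in the same animals. That list itself holds the C1q chain genes and Ctss, which are thus counted in both places. Its part in the chemokine, other class II and interferon results was not tested.

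Enzymes of cholesterol synthesis were among the genes lower in females. Of 29 genes of cholesterol synthesis, uptake and export, 9 were lower and 2 higher in females, with a median of -0.56 that was -0.23 with total counts, where 5 were lower and 5 higher. The lower genes were enzymes of the mevalonate and sterol branch: Hmgcs1, Mvd, Idi1, Fdps, Fdft1, Sqle, Cyp51, Msmo1 and Dhcr7. Msmo1, a sterol C4-demethylase at chr8:64718139-64733792, stood at 96.1, 127 and 86.5 CPM in females and 298, 237 and 273 CPM in males (-1.38 ± 0.23, adjusted p = 0.000296). Idi1, which isomerises isopentenyl diphosphate, was at 146, 252 and 134 CPM against 436, 400 and 472 CPM (-1.30 ± 0.264, adjusted p = 0.00192), and Cyp51, the lanosterol demethylase, at 121, 185 and 132 CPM against 299, 284 and 335 CPM. In each of these 3 genes the lowest male was above the highest female, a separation that naming by smallest p favours.

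The higher pair on the cholesterol list was Abcg5, a sterol exporter, and Mylip, a ubiquitin ligase that limits lipoprotein uptake (17.9, 20 and 17.1 CPM; 11.5, 10.5 and 6.34 CPM). On RD at 12 weeks Msmo1 overlapped between the sexes, at 142, 246 and 189.6 CPM in females and 155, 193 and 128 CPM in males, and the list gave 1 higher and 0 lower (median 0.28). On HFD at 2 weeks it gave 2 higher and 11 lower (median -0.72). The sex by diet difference had an unadjusted p under 0.05 for 15 of the 29, against 6.94% of all autosomal genes. It passed the adjusted threshold for 0, and this list too was chosen with earlier results known. The higher genes numbered 1 without female 3, female 7 or male 4, and the lower genes 3 without female 7, 5 without female 3 or male 2 and 6 without male 4.

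Of 26 lipogenesis genes, 1 was called, Mogat1, a monoacylglycerol acyltransferase (0.413, 0.367 and 0.37 CPM in females; 1.53, 1.26 and 0.851 CPM in males). Its call was lost without any 1 female or without male 2, and 2 genes of the list were lower without male 4. With total counts 5 were higher, in a setting that called 3115 of all 15169 autosomal genes higher. Fasn, fatty acid synthase, stood at 182, 321 and 164 CPM against 305, 203 and 162 CPM (-0.01, adjusted p = 0.994), and Scd1, the delta-9 desaturase, at 7201, 9677 and 1115 CPM against 15610, 14610 and 3451 CPM (-0.90, adjusted p = 0.407). Female 7 and male 4 were low for Scd1. Of 36 fatty acid oxidation and PPARA target genes 3 were higher (Acot4, Bdh1 and Pdk4) and 1 lower (Hsd17b4). Over all autosomal genes 9.95% were higher and 7.37% lower. With total counts the list gave 10 and 0, with DESeq2 6 and 2, and without male 4 1 and 0. Acot4, a peroxisomal acyl-CoA thioesterase, was at 224, 186 and 183 CPM against 71.2, 79.9 and 34.4 CPM (1.67 ± 0.346, adjusted p = 0.00245). Cpt1a, the gate of mitochondrial oxidation, differed by -0.12 (adjusted p = 0.768). On HFD at 2 weeks 16 of the 36 were higher in females (median 0.46).

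Genes of lipid droplets, lipases and uptake held some of the clearest separate values. Of 28, 3 were higher (Vldlr, Lpl and Lipc) and 6 lower, and with total counts 5 and 4, with a median of -0.24 that became 0.08. Fitm1, an endoplasmic reticulum protein that promotes droplet budding (chr14:55575617-55576954), stood at 3.87, 2.38 and 3 CPM in females and 29.4, 29.3 and 29.1 CPM in males (-3.24 ± 0.277, adjusted p = 6.35e-08). Vldlr, a triglyceride-rich lipoprotein receptor, was at 20.2, 15 and 24.2 CPM in females and 5.08, 2.04 and 0.79 CPM in males (2.90 ± 0.435, adjusted p = 0.00013; 3.81 without male 2). Cidec, a droplet-fusing protein at chr6:113424634-113435760, was at 4.07, 3.56 and 4.31 CPM in females and 9.99, 18.1 and 54.3 CPM in males (-2.78 ± 0.486, adjusted p = 0.000571), and without male 4 its log2 fold change was -1.79 (adjusted p = 0.00328). Cidec on RD at 12 weeks differed by -0.69 (adjusted p = 0.403). Pparg, a lipid-storage transcription factor, was lower at 6.53 to 9.81 CPM against 10.3 to 14.4 CPM (-0.64, adjusted p = 0.0221; lost without female 3, female 6, male 2 or male 4, and with total counts), while on HFD at 2 weeks it was higher in females (0.70, adjusted p = 0.0182). The lower calls numbered 3 without female 3 and 4 without female 6 or male 4.

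Of 25 bile acid genes 5 were higher (Cyp3a11, Abcc4, Klb, Slc51b and Cyp39a1) and 3 lower (Cyp7b1, Cyp8b1 and Baat). Cyp3a11, a P450 that hydroxylates bile acids and drugs (chr5:145854426-145879964), stood at 1315, 1514 and 1400 CPM in females and 569, 374 and 302 CPM in males (1.76 ± 0.303, adjusted p = 0.000412). Its values overlapped on RD at 12 weeks, at 2223, 1855 and 2086 CPM in females and 2692, 2655 and 1875 CPM in males, and the difference between diets was 1.99 (unadjusted p = 0.000119). Cyp8b1, which makes cholic acid, was at 119, 202 and 201 CPM against 529, 437 and 240.4 CPM (-1.21, adjusted p = 0.0137), a call lost without female 3 (adjusted p = 0.0711) or male 2 (0.061). Abcc4, a basolateral exporter, was at 4.8, 4.74 and 3.19 CPM against 2.2, 1.69 and 2.35 CPM. Cyp7a1, the rate-limiting enzyme of bile acid synthesis, spread over 64.4 to 143 CPM in females and 48.5 to 376 CPM in males (-0.96, adjusted p = 0.3). The higher genes numbered 2 without female 3, male 3 or male 4 and 3 without female 7, and the lower 1 without female 3 or male 2. With total counts 9 were higher and 1 lower.

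Of 32 xenobiotic receptor and metabolism genes 5 were higher (Nr1i3, Cyp2c37, Cyp3a11, Ugt1a1 and Ugt1a9) and 8 lower, and with total counts 7 and 4. Ces3a, a carboxylesterase, stood at 499.7, 496 and 784 CPM in females and 1774, 1776 and 2139 CPM in males (-1.68 ± 0.178, adjusted p = 1.6e-06). Ces2c was lower as well, at 11.9, 12.6 and 10.5 CPM against 30.5, 39.4 and 69.1 CPM. Ugt1a1, the bilirubin glucuronosyltransferase, was higher at 754, 706 and 861 CPM against 415, 456 and 394 CPM, and Cyp2c37 at 614, 735 and 679 CPM against 294, 182 and 194 CPM. Nr1i3, the nuclear receptor CAR, was at 403, 278 and 345 CPM against 228, 232 and 71 CPM (0.95, adjusted p = 0.0255; lost without female 3 or female 7), and Nr1i2, the receptor PXR, differed by 0.18 (adjusted p = 0.652). The lower genes numbered 4 without male 4 and 5 without any 1 female.

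The unfolded protein response expands the folding capacity of the endoplasmic reticulum, and the calls among its genes on HFD at 12 weeks were lost without male 4. Of 26 tested, 12 were called lower in females and 0 higher (median -0.96), with 0 called without male 4 (median -0.30) or with the compared groups fitted alone, 1 without female 3 or female 7, 16 without male 2 and 6 with total counts. Hspa5, which encodes the chaperone BiP (chr2:34771970-34777547), stood at 548, 921 and 488 CPM in females and 764, 1031 and 3723 CPM in males (-1.50 ± 0.425, adjusted p = 0.0206). Xbp1, the spliced transcription factor of the response, was at 112, 136 and 118 CPM against 136, 166 and 818 CPM, and Syvn1, the ligase of endoplasmic reticulum-associated degradation, at 43, 88 and 50.7 CPM against 86.5, 136 and 462 CPM. For all 3 genes male 4 lay far above every other animal, male 2 lay within the female range or at its edge and male 3 above it. Without male 4 the adjusted p was 0.409 for Hspa5, 0.393 for Xbp1 and 0.0787 for Syvn1. Summed CPM over the list was 4300 to 6190 in females, 5930 and 7630 in males 2 and 3 and 17500 in male 4. The same list gave 1 higher and 11 lower (median -0.87) on HFD at 2 weeks. In RD livers at 12 weeks it gave 0 higher and 2 lower (median -0.65).

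The ER stress element, CCAAT and CCACG 9 bases apart (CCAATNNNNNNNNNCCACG, both strands), was in 17 of 11223 promoters (0.151%) and in 9 of the 21 unfolded protein response genes with an entry (42.9%). It was in 0 of 1090 promoters of genes called higher and 6 of 851 called lower (0.705%). Hspa5 and Syvn1 are among the genes called lower with the element. Every call of the unfolded protein response list was lost without male 4, and the promoter counts were not made without that animal. The inner CCACG alone, which lies within the element, was in 5515 promoters (49.1%) and in 18 of the 21 (85.7%). Hspa5 (chr2:34771840-34772089, plus strand, element 65 to 47 bases before the start) and Syvn1 (chr19:6046326-6046575, plus strand, 44 to 26 bases before the start) are shown with the element in capitals, as members that were high together in male 4.
Hspa5: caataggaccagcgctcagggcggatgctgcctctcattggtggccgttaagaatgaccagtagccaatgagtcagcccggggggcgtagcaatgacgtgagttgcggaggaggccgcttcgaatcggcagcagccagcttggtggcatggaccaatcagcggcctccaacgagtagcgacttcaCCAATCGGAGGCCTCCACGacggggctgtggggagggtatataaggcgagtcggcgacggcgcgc
Syvn1: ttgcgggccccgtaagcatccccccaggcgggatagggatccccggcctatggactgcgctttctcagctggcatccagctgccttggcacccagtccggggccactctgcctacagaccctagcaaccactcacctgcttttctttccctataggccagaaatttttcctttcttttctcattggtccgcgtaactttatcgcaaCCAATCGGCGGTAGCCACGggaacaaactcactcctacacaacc

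Acute phase genes followed male 4 in part. Of 30, 4 were lower in females and 0 higher (median -0.44; -0.09 with total counts), with 2 lower without male 4 or any 1 female, 8 without male 2, and a median of 0.18 without male 4. Serpina3k, a serine protease inhibitor, stood at 3090, 3592 and 3964 CPM in females and 7544, 10040 and 17860 CPM in males (-1.74 ± 0.245, adjusted p = 5.41e-05), and without male 4 its log2 fold change was -1.29 (adjusted p = 0.000274). Saa4, a constitutive serum amyloid A, was at 308, 224 and 247 CPM against 390.4, 642 and 732 CPM, and without male 4 differed by -0.97 (adjusted p = 0.00967). Steap4, a metalloreductase induced by inflammation, was at 142, 108 and 94 CPM against 156, 218 and 979.6 CPM, and Stat3, the transducer of interleukin-6, at 104, 107 and 100.5 CPM against 116, 156 and 335 CPM. Both calls were lost without male 4 (adjusted p = 0.391 and 0.361). Saa1, the inducible serum amyloid A, overlapped at 42, 21.3 and 173 CPM against 18.8, 54 and 185 CPM (-0.13, adjusted p = 0.954). The acute phase list gave 1 higher and 20 lower (median -1.38) on HFD at 2 weeks. In RD livers at 12 weeks it gave 0 higher and 3 lower (median 0.02).

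**Figure D4:**
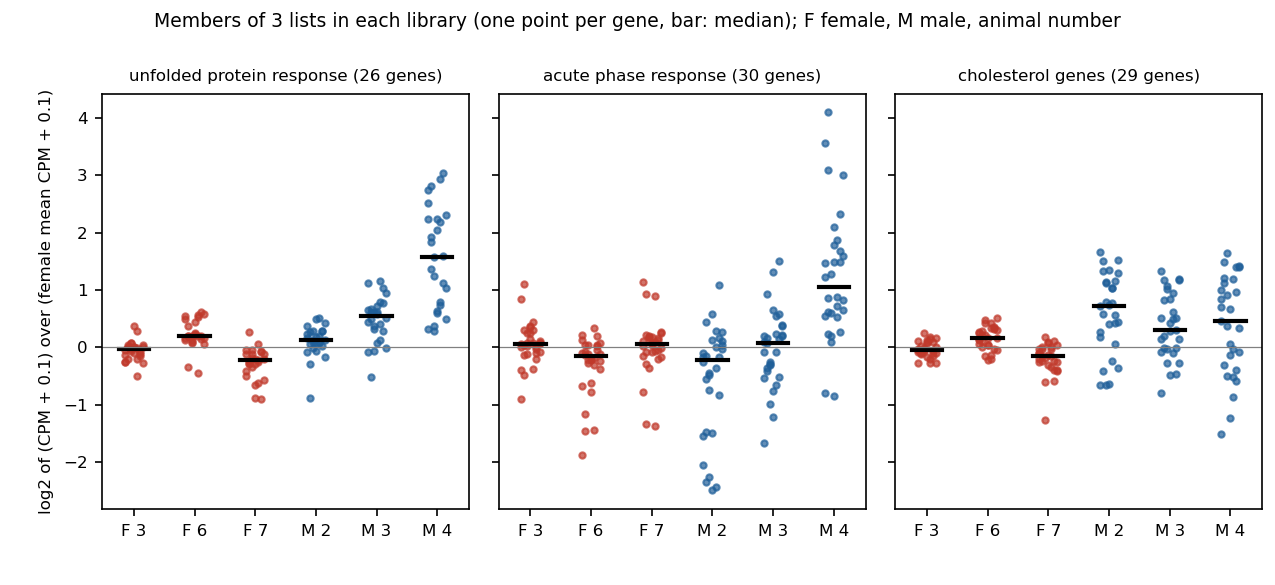
Levels of the tested genes of 3 lists (unfolded protein response, 26; acute phase, 30; cholesterol, 29) in each of the 6 livers, as log2 of (CPM + 0.1) over (female mean CPM + 0.1). Points are genes, coloured by sex, and black bars give each animal's median. For the unfolded protein response male 4 lies above the other animals, with a summed level of 17500 CPM against 4300 to 7630 CPM.

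Of 25 NRF2 and glutathione transferase genes 2 were higher (Nqo1 and Mgst3) and 7 lower, with 2 lower without male 4, 3 without female 3 or female 6, 4 without female 7, and 6 higher and 3 lower with total counts. Ugdh, which makes UDP-glucuronate, stood at 74, 79.1 and 81.6 CPM in females and 178, 180.2 and 385 CPM in males (-1.66 ± 0.239, adjusted p = 6.84e-05), and Mgst1, a microsomal glutathione transferase, at 1345, 1285 and 1313 CPM against 2675, 2645 and 2846 CPM. Nqo1, a quinone reductase, was higher at 9.9, 8.89 and 10.5 CPM against 5.81, 4.36 and 2.98 CPM. Srxn1 and Gclc, redox repair and glutathione synthesis genes, were at 121 and 579.9 CPM in male 4, while male 2 for Srxn1 (33.8 CPM) and male 3 for Gclc (227 CPM) lay within the female range, and without male 4 their adjusted p was 0.412 and 0.366. Of 25 integrated stress response genes 3 were higher (Slc3a2, Slc7a5 and Vldlr) and 4 lower (Asns, Psph, Mthfd2 and Eif4ebp1). Asns, asparagine synthetase, was at 0.286, 0.455 and 0.37 CPM in females and 2.11, 2.06 and 4.5 CPM in males (-2.96 ± 0.51, adjusted p = 0.000424). The lower genes of that list numbered 2 without female 3, female 7 or male 4, and with total counts 4 were higher and 1 lower.

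Several secreted and signalling genes differed clearly. Hamp2, a paralog of the iron hormone hepcidin (chr7:30922372-30924681), stood at 481, 463 and 276 CPM in females and 19, 15.3 and 5.41 CPM in males (4.94 ± 0.67, adjusted p = 6.03e-05). Slc39a4, a zinc importer, was at 20.7, 22.9 and 21 CPM against 10.2, 10.7 and 9.44 CPM (1.09 ± 0.125, adjusted p = 4.4e-06), and Slc40a1, the iron exporter ferroportin that Kupffer cells also carry, at 199, 174 and 204 CPM against 109, 80.4 and 68.2 CPM. Of 23 iron, zinc and heme genes 4 were higher (these 3 and Bmp6) and 1 lower (Scara5), and with total counts 7 and 1. Lepr, the leptin receptor, was at 32.5, 76.4 and 14.3 CPM against 5.53, 6.7 and 4.7 CPM (2.86 ± 0.617, adjusted p = 0.00381), and without female 6 its log2 fold change was 2.05 (adjusted p = 0.0271). Of 28 hepatokine and metabolic hormone genes 6 were higher (Hamp2, Lepr, Gdf2, Angptl6, Enho and Agt) and 0 lower, 4 without male 3 and 10 with total counts. Fgf21, the fasting hormone of the liver, differed by 0.56 (adjusted p = 0.645).

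Ccnd1, cyclin D1 (chr7:144929931-144939925), stood at 113, 99.7 and 76.7 CPM in females and 20.3, 23.7 and 43 CPM in males (1.73 ± 0.283, adjusted p = 0.000262), and its log2 fold change on RD at 12 weeks was 2.79. Of 29 cell cycle genes 4 were higher (Ccnd1, Ccnd2, Cdkn2c and Foxm1) and 1 lower (Ccne1), and 2 and 2 without male 4, 3 and 0 without female 7, 6 and 0 with total counts. Of 31 complement and coagulation genes 5 were higher (the 3 C1q chains, Mbl2 and F7) and 7 lower, among them C6, C8a, C8b and C9, while with total counts 11 were higher and 5 lower and without female 3 the lower genes numbered 4. Of 25 apolipoprotein and lipoprotein assembly genes 3 were higher (Tm6sf2, Apom and Lipc) and 1 lower (Sort1). Over all autosomal genes 9.95% were higher and 7.37% lower. The lower genes of the list numbered 3 without male 2, 2 without male 3 and 4 with DESeq2. With total counts 8 were higher and 1 lower. Tm6sf2, which lipidates nascent VLDL, was at 35.3, 32.4 and 39.7 CPM in females and 20.4, 17.1 and 12 CPM in males, and Sort1, a sorting receptor for apolipoprotein B, was lower at 8.07, 10.9 and 9.88 CPM against 21.4, 14.8 and 20 CPM.

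Of 28 glucose and glycogen genes 3 were higher (Hk1, Pkm and Irs1) and 1 lower, with 2 lower without female 6 or male 2. The shares over all autosomal genes, for this list and those that follow, were 9.95% higher and 7.37% lower. Pkm, the pyruvate kinase of non-hepatocyte cells, was at 19.8, 17.8 and 19.7 CPM against 10.6, 8.65 and 8.53 CPM. Gapdh, often used as a reference gene, was lower in females at 905, 798 and 804 CPM against 1416, 1692 and 1615 CPM (-0.91, adjusted p = 0.00508). Of 31 amino acid genes 2 were higher (Hal and Uroc1) and 4 lower (Tdo2, Gpt2, Bhmt and Aass), and with total counts 6 and 2. Without any 1 of female 3, female 6, female 7 or male 4 the higher genes of that list numbered 1, and without female 7 the lower numbered 2. Of 16 periportal markers 3 were higher and 0 lower (median 0.16), with total counts 7 and 0 (median 0.44) and with DESeq2 3 and 1. Of 16 pericentral markers 0 were higher and 1 lower, and with total counts 1 and 1. The periportal genes were Hal, Aldh1b1 and Ctsc. Hal, histidine ammonia-lyase, stood at 418, 418 and 462 CPM against 233, 219 and 152 CPM, and the pericentral gene was Aldh1a1, a retinal dehydrogenase, at 502, 449.5 and 583 CPM against 1354, 1141 and 1381 CPM. The defining zonal genes Glul and Cyp2e1 were not called by edgeR or DESeq2. The periportal gene Cyp2f2 differed by -0.52 (adjusted p = 0.0533, edgeR), and was called lower by DESeq2 (adjusted p = 0.0293) and by edgeR without male 2 (0.0365).

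Of 32 nuclear oxidative phosphorylation genes Cycs, cytochrome c, was called lower, at 27.9, 26 and 20.5 CPM against 48.9, 60.6 and 68.7 CPM, and with total counts 5 were higher and 1 lower. Of 20 clock genes Bhlhe41, a repressor of clock target genes, was lower (-2.59), a call lost without female 6, female 7, male 3 or male 4, and without male 2 2 were lower, while with total counts 2 of the clock genes were higher. Of 28 genes of cytokeratins, junctions and injury signalling 5 were higher (Krt23, Lgals3, S100a6, Tuba1a and Rad51b) and 4 lower (Sox9, Lgals1, S100a10 and Cfd). Without male 4 they numbered 4 and 1, without female 3 also 4 and 1, without female 7 3 and 2, without male 2 4 and 7, with DESeq2 6 and 7, and with total counts 9 and 2. Among 6 tested adipocyte markers Car3, a carbonic anhydrase also made by hepatocytes, was lower at 1107, 1196 and 1244 CPM against 3599, 3053 and 3471 CPM. Cfd, adipsin, had 0 counts in the 3 females and 256 in the 3 males, at least 38.8-fold lower against a floor of 3 counts per library, and its call was lost without female 3, female 7 or male 4 (adjusted p = 0.0538, 0.057 and 0.0537). Adipoq lay between 0 and 0.162 CPM in all 6 livers. The adipocyte list gave 1 call without female 3, female 7 or male 4 and 3 without female 6. Of 8 tested markers of bile duct cells Pkhd1 was higher and Sox9 lower, the latter lost without female 3, female 7, male 3 or male 4, of red cells Car2 was higher, and of 4 genes of pancreas, muscle or gut edgeR called 0, with 0 at an unadjusted p under 0.05, and DESeq2 called 1, lower in females.

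Beside the calls already described, some named above were lost when 1 animal was left out. They were Hmgcs1, Mvd, Fdps, Fdft1, Sqle, Dhcr7 and Abcg5 of the sterol genes, Klb, Baat, Slc51b and Cyp39a1 of the bile acid genes, Bdh1, Pdk4, Lipc and Apom of the other lipid genes, and Psph, Mthfd2, Tdo2, Aass, Uroc1 and Irs1 of the amino acid and glucose genes. Among immune and marker genes they were Gzma, Gzmb, Ccr7, Irf8, Plac8 and Ly6c2, and among secreted and growth genes Agt, Angptl6, Enho, Bmp6, F7, Foxm1, Cdkn2c, Ccne1, Krt23, Tuba1a and S100a10. Over 218 called genes followed by name, 54 calls were lost without male 4, 43 without female 3, 42 without female 7, 27 without female 6, 26 without male 3 and 12 without male 2, and none changed direction.

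The next question was whether the sex difference on HFD differed from that on RD in the same cohort. By edgeR's interaction test 0 of 15169 genes (0%) passed, with a smallest adjusted p of 0.174, and 1053 (6.94%) had an unadjusted p under 0.05. DESeq2 called 61. The genes with the separate values given above, such as Emr1 (difference between diets 1.71, unadjusted p = 7.92e-05), Msmo1 (-1.66, 4.3e-05) and Cyp3a11 (1.99, 0.000119), are therefore described by their levels on each diet, and a difference between diets was not called for any of them by edgeR. Without male 2 on HFD 10 genes passed and without male 4 2 did.

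The same test between 12 and 2 weeks on HFD called 417 genes (2.75%), 271 with a positive interaction, a female-over-male log2 fold change higher at 12 than at 2 weeks (1.79%), and 146 with a negative one (0.962%). Weeks on diet, age and cohort change together here and cannot be told apart. The macrophage list gave 8 of 17 positive and 0 negative, and the Kupffer cell list 5 of 13 and 0. Emr1 changed from 0.07 at 2 weeks to 2.70 at 12 weeks (interaction 2.64 ± 0.351, adjusted p = 0.000574), and Cd163 from -0.38 to 2.24 (adjusted p = 0.00734). Stab2 changed from 0.25 to 1.52 (adjusted p = 0.0391). Cd300e, a myeloid receptor, was at 2.51, 3.15 and 3.57 CPM in females and 4.9, 5.62 and 2.23 CPM in males at 2 weeks, and at 1.84, 3.15 and 4.11 CPM against 0.306, 0.3 and 0.892 CPM at 12 weeks. For Emr1 and Cd300e every male at 12 weeks was below every male at 2 weeks, while the females overlapped between the times. The count of 417 was 215 without female 7, 206 without male 3 and 216 without male 13 of the 2-week group.

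Saa2, an inducible serum amyloid A, had the highest interaction (7.26 ± 1.78, adjusted p = 0.0369). At 2 weeks it was at 4.73, 4.98 and 22.2 CPM in females and 109.5, 4081 and 537 CPM in males, and at 12 weeks at 10.8, 5.43 and 28.9 CPM against 5.34, 11.3 and 27.4 CPM. Male 13 of the 2-week group held its highest value, and without that animal the adjusted p was 0.125. The same animal was highest for Dnajc12, a DnaJ cochaperone, at 73.9 CPM against 19 and 16.3 CPM in the other males, with females at 5.24 to 6.71 CPM, and for Fam222a at 26.2 CPM. Sult2a1 was at 55.7, 30.1 and 87.1 CPM in females at 2 weeks, below the 133 to 183 CPM of 12 weeks. The males were at or under 0.216 CPM at both times, with 7 counts in all at 12 weeks. The size of its interaction therefore rests in part on male values near the floor.

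Among negative interactions, Hspa1b, the inducible HSP70, was at 7.52, 19.9 and 6.72 CPM in females and 56.4, 43.1 and 183 CPM in males at 12 weeks, and at 13.9, 16.5 and 8.35 CPM against 5.8, 4.67 and 6.29 CPM at 2 weeks (-4.26 ± 0.882, adjusted p = 0.0149). Acot3, a peroxisomal thioesterase, stood at 181, 128 and 224 CPM against 9.01, 13.8 and 6.49 CPM at 12 weeks and at 129.7, 78.3 and 22.6 CPM against 0.245, 0.156 and 0.401 CPM at 2 weeks (-3.99 ± 1.04, adjusted p = 0.0461), a call lost under 13 of 18 settings. Slc22a27, an organic anion transporter, went from 0.101 to 0.213 CPM in males at 2 weeks to 4.36, 1.49 and 0.993 CPM at 12 weeks, and Cyp2b9 from 0.123 to 0.184 CPM to 4.49, 0.629 and 0.811 CPM. For Acot3, Slc22a27 and Cyp2b9 the females stayed far above the males at both times, and the smaller difference came with higher male levels. Slc10a2, the apical bile acid transporter, was at 12.6, 8.55 and 6.21 CPM in females and 72, 112 and 396 CPM in males at 12 weeks, and male 4 was again the highest. Without male 4 its adjusted p was 0.0788.

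**Figure D5:**
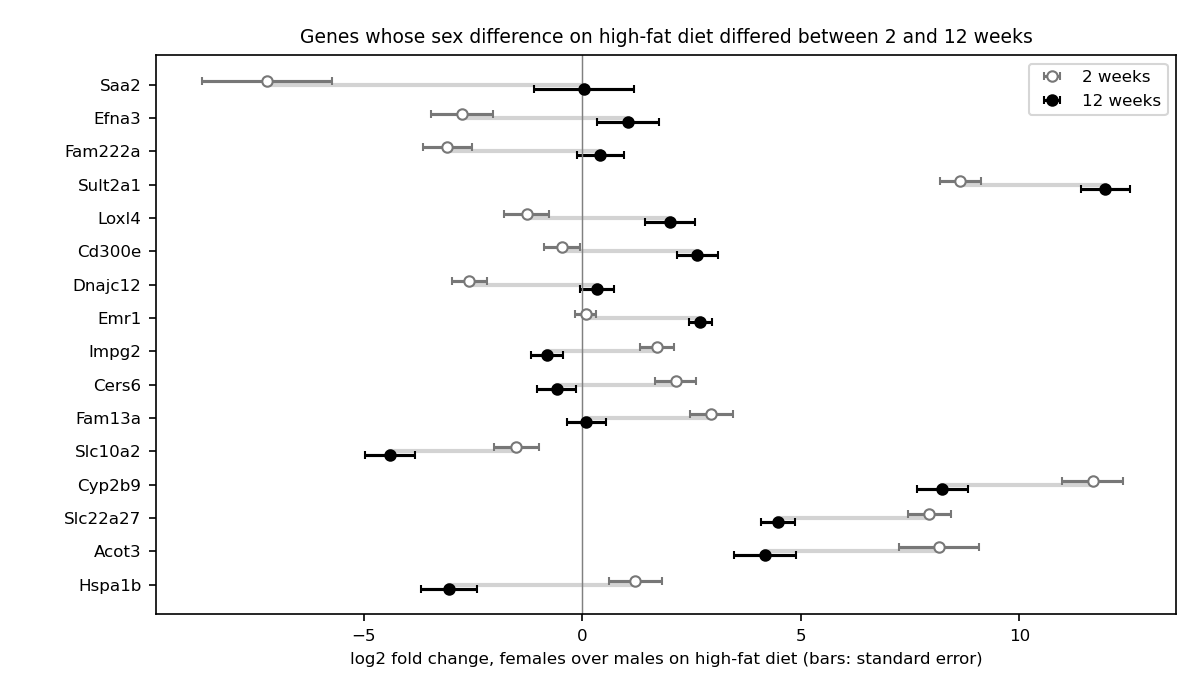
Log2 fold change of females over males with its SE on HFD at 2 weeks and at 12 weeks for 16 genes, 8 from the positive and 8 from the negative end of the interaction between the times. Saa2 runs from -7.22 to 0.04 and Emr1 from 0.07 to 2.70, while Cyp2b9 runs from 11.68 to 8.24 and Hspa1b from 1.21 to -3.05.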

How the data were processed

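Poly(A) RNA of mouse liver was sequenced in 24 libraries, 6 of them in the comparison. The authors deposited estimated counts for 30055 gene symbols in 48 libraries; 0.094% of the values above 0 were whole numbers (within 1e-06). Per the submitters' processing notes, kallisto, GRCm38, edgeR and DESeq2 were used; versions, roles and how estimates were summed per gene are not given in the sources used here. Counts were rounded. All 24 liver libraries in 8 groups entered one edgeR 4.0.16 quasi-likelihood fit (R 4.3.3, limma 3.58.1; filterByExpr, TMM scaling, robust), with Benjamini-Hochberg adjustment over 15897 genes and counts over the 15169 with 1 autosomal position (28191 symbols placed by GENCODE M21). SE is the log2 fold change divided by the square root of F. Alternatives were DESeq2 1.42.0 and those named below. The fitting steps were tested on simulated data. Counting intervals and floors cover counting error only.

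The members and the 44 gene lists (944 symbols, 896 tested) were chosen with earlier results of these data known. Named were the 15 highest and 15 lowest called genes without overlap whose mean log2 CPM reached 1, 8 and 8 for an interaction, up to 6 called genes a list by smallest p, members behind counts of 5 or fewer, and defining genes of a list. A few of these are not reported here. Called genes outside this rule (Cyp17a1, Cyp4a14, Egfr, Slco1a1, Sult3a1, Fmo2, Timd4, Pparg, Hmgcs1, Mvd, Fdps, Dhcr7) were named after their values were seen. RD and HFD males with the same replicate number had correlations of -0.112, 0.050 and 0.127. Those with unlike numbers lay between -0.169 and 0.169. With 3 animals a group such values cannot show whether a shared number marks a pairing, and the labels do not say.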

Additional observations from a re-analysis of the deposited data

Results flagged for a closer look

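The sex difference on HFD differed between 12 and 2 weeks, by edgeR's test of the interaction, for 417 autosomal genes. Weeks on diet, age and cohort change together in this contrast, and no cause was tested. Among the 16 genes named by rule, the interaction (12 minus 2 weeks, log2) was positive for Saa2 (7.26), Efna3 (3.80), Fam222a (3.50), Sult2a1 (3.32), Loxl4 (3.28), Cd300e (3.10), Dnajc12 (2.93) and Emr1 (2.64). It was negative for Hspa1b (-4.26), Acot3 (-3.99), Slc22a27 (-3.47), Cyp2b9 (-3.44), Slc10a2 (-2.89), Fam13a (-2.86), Cers6 (-2.72) and Impg2 (-2.51).

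Emr1 and Impg2 passed under all 18 settings run. Cd300e, Dnajc12, Hspa1b, Slc22a27 and Cyp2b9 failed only when the compared groups were fitted alone. Acot3 failed under 13 settings, Efna3 under 11, Saa2, Sult2a1 and Slc10a2 under 9, Loxl4 and Cers6 under 8, Fam13a under 5 and Fam222a under 3. Efna3, Fam222a, Loxl4, Fam13a, Sult2a1, Acot3 and Saa2 failed without male 13 of the 2-week group, and Fam13a, a gene of fat storage, was at 4.26, 2.25 and 4.01 CPM in the 2-week males against 20.3 to 34.5 CPM in the 2-week females. Cers6, a ceramide synthase, was at 7.79, 12.5 and 8.88 CPM in the males at 2 weeks and 23, 28 and 112 CPM at 12 weeks, where the females were at 29.5 to 46.1 CPM.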

How the results depend on the processing

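The 2628 calls on HFD at 12 weeks were 3178 with DESeq2, 2640 with median-of-ratios size factors, 3484 with total counts (an alternative chosen after seeing the data), 2213 with no filter on low counts, 1072 with the compared groups fitted alone, 1294 with a log2 fold change of at least 1, and 1574 to 3087 with 1 animal left out (1661 without female 7, 1574 without male 4). Of 218 called genes followed by name, 132 were called under every setting run and 86 were lost under at least 1, 68 of them with the groups alone and 54 without male 4; none reversed. The 0 calls of sex by diet became 61 with DESeq2, 1 with the groups alone and 0 to 10 with 1 animal left out. A replicate block in the males, by the numbers they share, also gave 0, and no paired analysis of the sexes was possible because females and males share only number 3. The 417 calls of sex by time became 988 with DESeq2, 61 with the groups alone and 206 to 609 with 1 animal left out. The cause of these shifts was not tested, except that groups fitted alone and animals left out mean fewer samples. Depth limits genes with few counts, such as Ncr1, with 52 counts in females and 7 in males, a 5.77-fold ratio (95% counting interval 2.61 to 15.1).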
